A study of Mus musculus with 24 samples.

Results

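The genes described here are 10 components of innate nucleic acid sensing and interferon reception in macrophages: Cgas, Sting1, Mavs, Ifih1, Dhx58, Zbp1, Ifngr1, Ifngr2, Ifnar1 and Ifnar2. They were taken by symbol from the 35770 genes listed in the deposited table, and all 10 were listed and tested. Primary bone marrow-derived macrophages (BMDMs) of C57BL/6 mice, differentiated with M-CSF, received control media or conditioned media (CM). The CM came from a mouse lung cancer line, LL2 (Lewis lung carcinoma), in its WT form or with KEAP1 KO or with NRF2 KO. It was collected after 48 h, control media were plated without cancer cells, and CM made up 75% of the culture volume. Vehicle or 100 nM CDDO-Me was present for 24 h. CDDO-Me is a synthetic oleanane triterpenoid that binds KEAP1 and activates the antioxidant transcription factor NRF2. The 8 groups of 3 libraries each were media/vehicle, media/CDDO-Me, WT CM/vehicle, WT CM/CDDO-Me, KEAP1 KO CM/vehicle, KEAP1 KO CM/CDDO-Me, NRF2 KO CM/vehicle and NRF2 KO CM/CDDO-Me. KEAP1 and NRF2 were knocked out in the cancer cells and not in the macrophages, so macrophage transcripts do not check the labels, and each knockout was represented by 1 cell line.

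Cytosolic DNA is bound by cGAS, which makes the messenger cGAMP and so switches on STING, the product of Sting1. Cytosolic double-stranded RNA is bound by MDA5, the product of Ifih1, whose signal passes through MAVS on mitochondria and is modulated by LGP2, the product of Dhx58. ZBP1 binds Z-form nucleic acids and recruits the kinases of necroptosis, a lytic form of cell death. These routes lead to interferon production, type I interferons act through the receptor chains IFNAR1 and IFNAR2, interferon gamma acts through IFNGR1 and IFNGR2, and macrophages are known both to make and to answer interferons. Several of the sensors are themselves well-known interferon-stimulated genes, whereas the receptor chains are largely made constitutively.

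Values are TPM, a transcript abundance corrected for length and for the library's total, so levels of different genes can be compared. No read number comes with a TPM, and the study's methods give only an average depth, so the depth of each library is unknown. A library had from 15702 to 18993 genes above 0, the lowest numbers being those of replicate 3 in both NRF2 KO CM groups. These replicate 3 libraries stood apart for several of the genes below. The labels name 3 independent samples per group without naming separate mice, so the p-values measure the spread between these samples only. In the main fit each gene's spread was pooled over all 8 groups, so libraries outside a comparison also enter its p-value. All 7 macrophage markers were above 1 TPM in each library, with a summed level from 14888 to 38321 TPM. Of 8 fibroblast markers, 7 were above 1 TPM in each library, and their sum ranged from 166 to 2099 TPM. Sums stayed at or below 3.46 TPM for markers of T cells, B cells and NK cells, and those of 3 further cell types are given with the results. In bulk RNA, fewer cells of a type and less RNA per cell cannot be told apart.

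**Figure D1:**
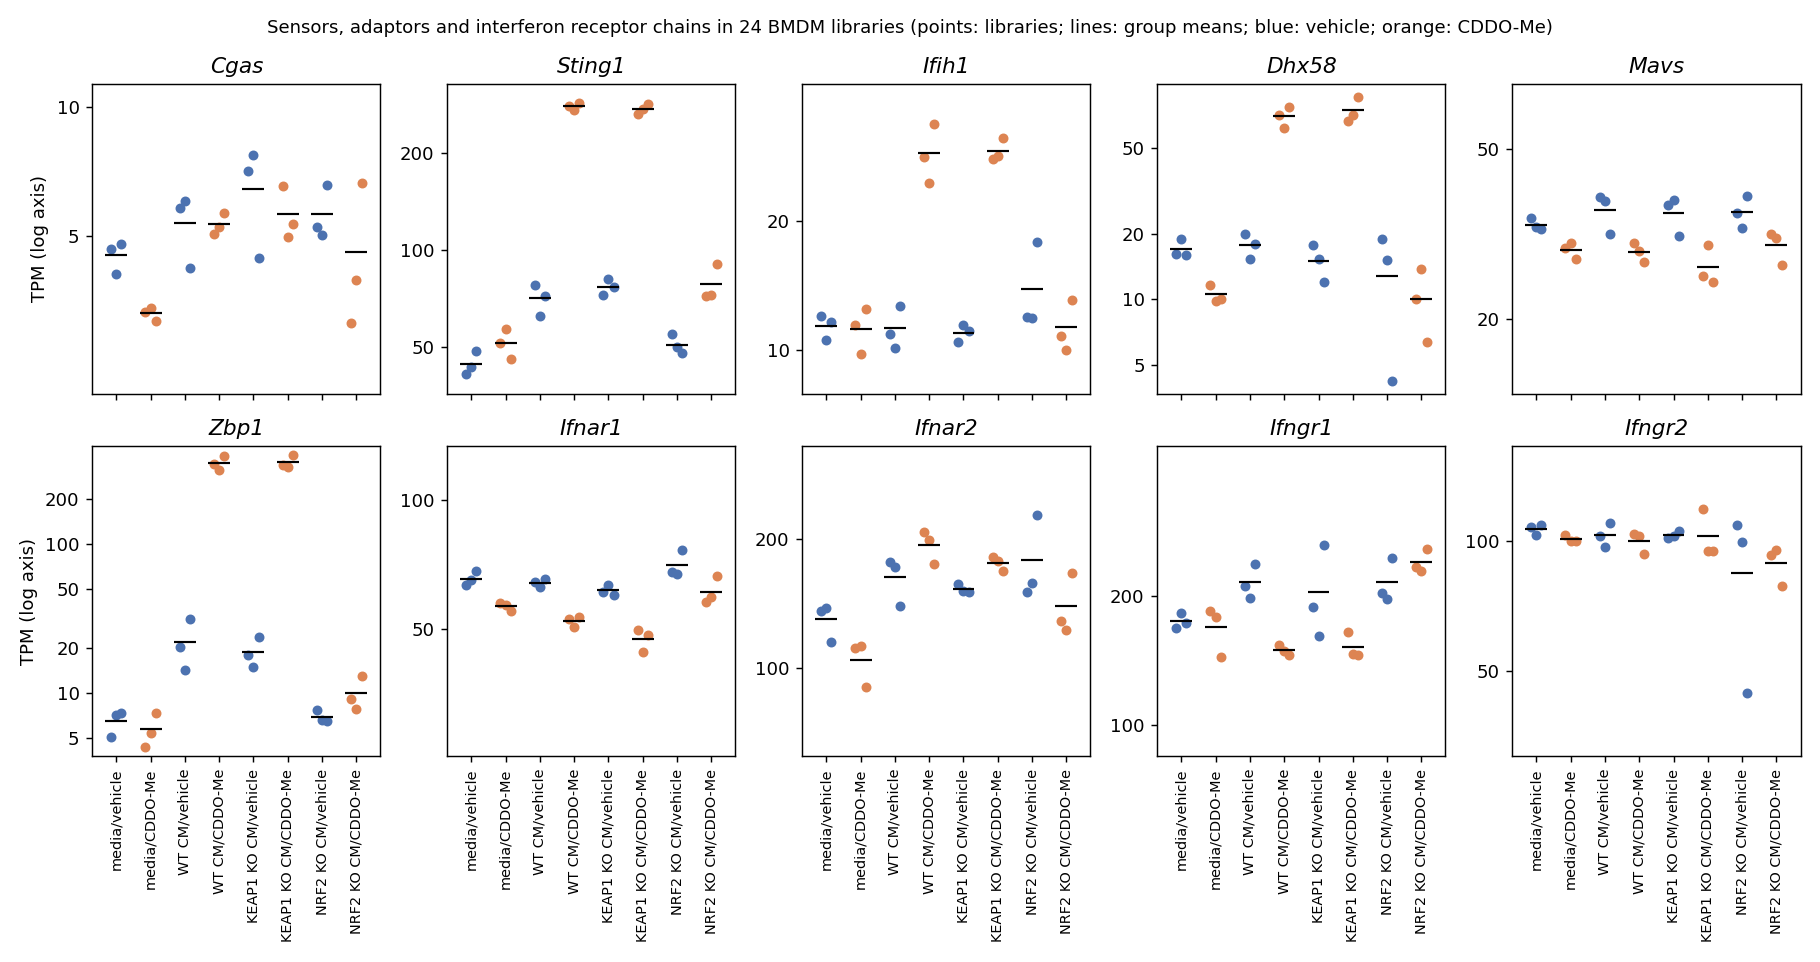
TPM of the 10 genes on log axes (1 panel per gene) in the 24 libraries, grouped by medium, with vehicle in blue, CDDO-Me in orange, points for libraries and lines for the means of 3 libraries. For Zbp1, Sting1, Dhx58 and Ifih1 the CDDO-Me points of WT CM and of KEAP1 KO CM lie above all other libraries, whereas for Ifngr2 all points but 1, at 44.3 TPM, lie between 78.6 and 119 TPM.

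With CDDO-Me, 4 of the 6 sensor and adaptor genes rose in BMDMs given WT CM, and the same 4 rose with KEAP1 KO CM: Zbp1, Sting1, Dhx58 and Ifih1. None of the 4 receptor chains passed the test in either medium. Across the 13661 genes tested with limma at a Benjamini-Hochberg adjusted p under 0.05, 27.8% differed in WT CM (13.9% higher and 13.9% lower). In KEAP1 KO CM 28.8% differed (14.5% higher and 14.2% lower). The 4 of 10 genes called in each medium, all higher, compare with these shares. In NRF2 KO CM, 9.77% of all genes differed (4.49% higher and 5.28% lower), and only Sting1 of the 10 genes did. In control media, 6.01% of all genes differed (3.07% higher and 2.94% lower), whereas limma called 0 of the 10 genes. At an unadjusted p under 0.05 were 1 of the 10 and 2203 of all 13661 genes. The median log2 fold change of the 6 sensor and adaptor genes was 1.71 in WT CM and 1.74 in KEAP1 KO CM, beside -0.03 and -0.02 over all genes tested. The median of the 4 receptor chains was -0.06 and -0.02. Without scaling between libraries, 7 of the 10 genes were called in each of these media, 4 of them higher and 3 of them lower (Mavs, Ifngr1 and Ifnar1), while the median over all genes shifted to -0.12 and -0.17. That fit called 29.6% of all genes in WT CM and 33% in KEAP1 KO CM. With replicate 3 of both NRF2 KO CM groups left out of the fit, 6 of the 10 genes were called in WT CM, 7 in KEAP1 KO CM and 3 in control media, where that fit called 43.7%, 45.3% and 15.6% of all genes.

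**Figure D2:**
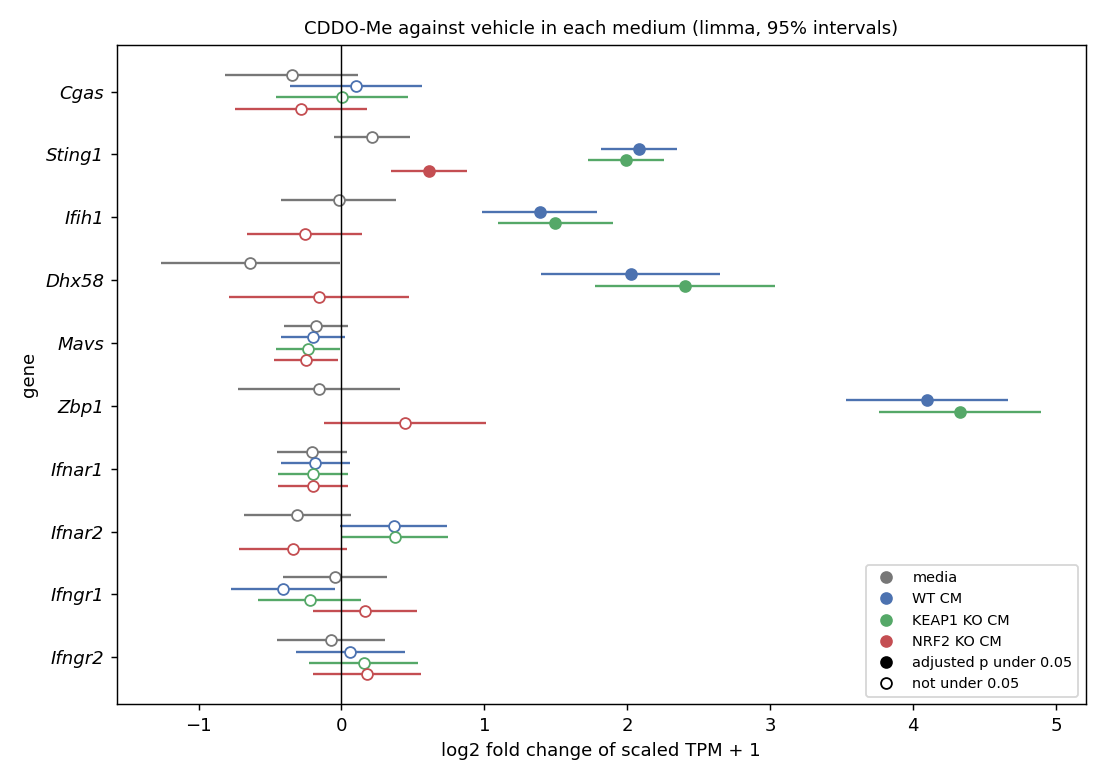
Log2 fold change of CDDO-Me against vehicle for each gene (vertical axis) in 4 media (colours), with 95% intervals from limma, where filled points passed an adjusted p of 0.05. Zbp1, Sting1, Dhx58 and Ifih1 lie far to the right in WT CM and KEAP1 KO CM only, and Sting1 is the only filled point in NRF2 KO CM.

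Zbp1, on chromosome 2 of GRCm39 from 173033815 to 173060724, showed the widest range of the 10 genes. In control media it stood at 5.04, 7.06 and 7.28 TPM under vehicle and 4.32, 5.41 and 7.34 TPM under CDDO-Me, which overlapped. With WT CM it was at 20.4, 14.2 and 31.1 TPM under vehicle and at 340.3, 311 and 388 TPM under CDDO-Me. Every library of the treated group thus lay far above every vehicle library, a fold of 17.1 and a log2 change of 4.10 (SE 0.27, adjusted p = 4.3e-10). With KEAP1 KO CM the values were 17.996, 14.8 and 23.8 TPM under vehicle and 334, 325 and 391 TPM under CDDO-Me, a log2 change of 4.33 (SE 0.27, adjusted p = 1.9e-10). The NRF2 KO CM libraries were at 7.73, 6.59 and 6.44 TPM under vehicle and 9.04, 7.76 and 13.01 TPM under CDDO-Me. These groups did not overlap in TPM. After scaling, on the log2 scale, 3.07 in vehicle replicate 1 lay above 3.02 in CDDO-Me replicate 2. The difference of 0.45 (SE 0.27, adjusted p = 0.39) did not pass, and without replicate 3 of NRF2 KO CM/CDDO-Me it was 0.21. With mean levels of 350.1 ± 35.8 and 346 ± 39.1 TPM (SD, n = 3), the groups of KEAP1 KO CM and WT CM under CDDO-Me overlapped each other and stood at the top. WT CM/vehicle and KEAP1 KO CM/vehicle overlapped each other in the middle, above the 4 groups of control media and NRF2 KO CM.

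Sting1, on chromosome 18 from 35866732 to 35873607, encodes the adaptor that receives the cGAS signal on the endoplasmic reticulum. Its TPM were 41.1, 43.2 and 48.7 in media/vehicle and 51.6, 56.9 and 46.01 in media/CDDO-Me, ranges that overlapped, with a log2 change of 0.22 (SE 0.13, adjusted p = 0.48). In WT CM they were 77.9, 62.4 and 71.97 under vehicle and 280.0, 272 and 286 under CDDO-Me, a fold of 4.23 and a log2 change of 2.08 (SE 0.13, adjusted p = 1.4e-10). In KEAP1 KO CM they were 72.3, 81.5 and 76.6 under vehicle and 264, 275 and 283 under CDDO-Me, a log2 change of 1.99 (SE 0.13, adjusted p = 2.5e-10). Treated and vehicle libraries were widely separated in both media, and the treated libraries of both media spanned only 264 to 286 TPM. In NRF2 KO CM, 54.7, 49.9 and 47.8 TPM under vehicle stood against 72.2, 72.6 and 90.4 TPM under CDDO-Me, which did not overlap either, with a log2 change of 0.61 (SE 0.13, adjusted p = 0.003). That smaller rise was no longer called when limma was fitted to the NRF2 KO CM groups alone (log2 fold change 0.63, adjusted p = 0.28).

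Cgas (chromosome 9, 78337802 to 78350535), the enzyme above Sting1 that makes cGAMP, did not pass with CDDO-Me in any medium. It had the lowest mean of the 10 genes in every group, at 4.52 ± 0.381 TPM in media/vehicle, 5.37 ± 1.004 in WT CM/vehicle and 5.34 ± 0.312 in WT CM/CDDO-Me (SD, n = 3). Its 95% interval for CDDO-Me against vehicle was from -0.36 to 0.56 in WT CM and from -0.46 to 0.47 in KEAP1 KO CM, on the log2 scale. In control media its TPM were 4.68, 4.09 and 4.805 under vehicle and 3.33, 3.41 and 3.18 under CDDO-Me, lower in every treated library, but the difference of -0.35 (SE 0.22, adjusted p = 0.54) did not pass. Exons of Cgas overlap those of Gm68924 on the opposite strand, and exons of Mavs those of Gm75131. The authors' counting is not stated to use strand, so reads from such a pair cannot be told apart.

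Among the RNA sensors, both helicase genes rose in WT CM and in KEAP1 KO CM. Ifih1 (chromosome 2, 62425714 to 62476607), which encodes the long double-stranded RNA sensor MDA5, was at 10.9, 10.1 and 12.7 TPM in WT CM/vehicle and at 28.1, 24.5 and 33.7 TPM in WT CM/CDDO-Me. The KEAP1 KO CM libraries were at 10.4, 11.4 and 11.1 TPM under vehicle and 27.9, 28.4 and 31.1 TPM under CDDO-Me. In both media every treated library lay above every vehicle library, with log2 fold changes of 1.39 (SE 0.19, adjusted p = 1.1e-05) and 1.496 (SE 0.19, adjusted p = 4.3e-06). The control media libraries, at 11.98, 10.6 and 11.6 TPM under vehicle and 11.4, 9.79 and 12.4 TPM under CDDO-Me, overlapped. In NRF2 KO CM the TPM were 11.95, 11.9 and 17.9 under vehicle and 10.8, 9.99 and 13.1 under CDDO-Me, also overlapping, with the high vehicle value in replicate 3.

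Dhx58 (chromosome 11, 100585710 to 100595097) encodes LGP2, a helicase without signalling domains that tunes MDA5 and RIG-I. It was at 20.00, 15.4 and 17.99 TPM in WT CM/vehicle and at 70.4, 61.5 and 77.1 TPM in WT CM/CDDO-Me, a fold of 4.07 and a log2 change of 2.02 (SE 0.30, adjusted p = 2.4e-05). KEAP1 KO CM gave 17.7, 15.3 and 12.1 TPM under vehicle and 66.2, 70.9 and 85.5 TPM under CDDO-Me, a log2 change of 2.40 (SE 0.30, adjusted p = 2.9e-06). The treated groups stood clear of the vehicle groups in both media. In control media the direction was the opposite: 16.2, 18.9 and 16.1 TPM under vehicle and 11.7, 9.86 and 10.1 TPM under CDDO-Me, without overlap, although the log2 difference of -0.64 (SE 0.30, adjusted p = 0.3) did not pass. That SE pools all groups: the scaled log2 SD was 0.11 in media/vehicle, 0.13 in media/CDDO-Me and 0.93 in NRF2 KO CM/vehicle. The difference passed with replicate 3 of both NRF2 KO CM groups left out of the fit (log2 fold change -0.63, adjusted p = 0.0091). In NRF2 KO CM, 18.99, 15.2 and 4.23 TPM under vehicle and 10.00, 13.8 and 6.39 TPM under CDDO-Me overlapped. The log2 difference there, -0.16, was -0.67 (adjusted p = 0.038) without replicate 3 of NRF2 KO CM/vehicle and 0.06 without replicate 3 of NRF2 KO CM/CDDO-Me. Exons of Dhx58 overlap those of Dhx58os and Gm72653 on the opposite strand.

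Mavs (chromosome 2, 131075442 to 131096740), the shared adaptor of MDA5 and RIG-I, did not pass in any comparison. Its group means lay between 26.5 ± 2.93 TPM in KEAP1 KO CM/CDDO-Me and 36.0 ± 3.82 TPM in WT CM/vehicle (SD, n = 3). The 4 groups with the highest means were the vehicle groups and the 4 with the lowest were the CDDO-Me groups, with log2 differences between -0.25 in NRF2 KO CM and -0.18 in control media. Without scaling between libraries it was lower in WT CM and in KEAP1 KO CM (log2 fold changes -0.31 and -0.40, adjusted p = 0.031 and 0.0052), and in KEAP1 KO CM also with replicate 3 of both NRF2 KO CM groups left out (log2 fold change -0.21, adjusted p = 0.037).

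Promoter sequence was looked up in RefSeq (GRCm38.p6, 250 bases before to 50 after the start) and was found for 7 of the 10 genes; the others are Sting1, Dhx58 and Zbp1. Cores bound by interferon-activated factors and by NRF2 were searched on both strands: GAAANNGAAA of the interferon-stimulated response element, TTCNNNGAA of the gamma-activated site and TGACNNNGC of the antioxidant response element. The first was in 3.44% of 32851 promoters of the same length, the second in 8.3% and the third in 12.4%. Every match among the 7 genes is shown, so that the letters can be read beside the changes above and below, in a window of 30 bases, 5′ to 3′ on the gene's strand, with the matching core in capitals.
Ifih1: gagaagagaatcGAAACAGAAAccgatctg
Ifnar2: tgccaaggccTTCCTGGAAgaagagagtac
Ifnar1: ggcgggggcgTTCACGGAAggggcggggcg
Mavs: gccaggccaaTGACTGCGCttccgatcccg
The Ifih1 window (chr2:62646206-62646235, minus strand) holds the interferon core 32 bases after the start. The Ifnar2 window (chr16:91372559-91372588, plus strand) holds the gamma-activated core 214 bases before it, and the Ifnar1 window (chr16:91485200-91485229, plus strand) 5 bases before it. The Mavs window (chr2:131233980-131234009, plus strand) holds the antioxidant core 73 bases before the start. A match shows only that these letters are present. The 4 genes with one are Ifih1, which rose, and Mavs, Ifnar1 and Ifnar2, which did not pass with CDDO-Me in any medium in the main fit. Mavs, Ifnar1 and Ifnar2 passed in some media in alternative fits, given with each gene.

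Ifnar2 (chromosome 16, 91169618 to 91202723), the high-affinity chain of the type I interferon receptor, was at 136, 138 and 115 TPM in media/vehicle and 111, 112 and 90.1 TPM in media/CDDO-Me, lower in every treated library. In WT CM it was at 177, 172 and 139.9 TPM under vehicle and 207, 199 and 175 TPM under CDDO-Me, which overlapped in TPM. After scaling, on the log2 scale, the highest vehicle value was 7.47 and the lowest treated value 7.59, without overlap. In KEAP1 KO CM the TPM were 157, 152 and 150.2 under vehicle and 182, 177 and 169 under CDDO-Me, higher in every treated library. The log2 fold changes were -0.31 (SE 0.18, adjusted p = 0.47) in control media, 0.37 (SE 0.18, adjusted p = 0.15) in WT CM and 0.37 (SE 0.18, adjusted p = 0.14) in KEAP1 KO CM, of which none passed. With replicate 3 of both NRF2 KO CM groups left out of the fit, the 3 values were -0.30 (adjusted p = 0.029), 0.41 (adjusted p = 0.0009) and 0.40 (adjusted p = 0.0011). In NRF2 KO CM, Ifnar2 was at 150.4, 158 and 228 TPM under vehicle and 129, 123 and 167 TPM under CDDO-Me, with replicate 3 the highest in both groups. Gm21970 shares exons with Ifnar2 on the same strand and was listed between 0 and 1.54 TPM, and reads of their shared exons cannot be told apart.

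Ifnar1 (chromosome 16, 91281942 to 91305789), the other chain of that receptor, was lower in TPM in every treated library than in any vehicle library of the same medium. In NRF2 KO CM its scaled log2 values overlapped. It was at 63.4, 65.2 and 68.3 TPM in media/vehicle and 57.5, 57.00 and 55.01 TPM in media/CDDO-Me. In WT CM it was at 64.3, 62.7 and 65.5 TPM under vehicle and 52.8, 50.5 and 53.4 TPM under CDDO-Me, and in KEAP1 KO CM the means were 61.6 ± 1.73 and 47.5 ± 2.97 TPM (SD, n = 3). The log2 differences were small, from -0.21 in control media to -0.18 in WT CM, and none passed (adjusted p = 0.23 to 0.44). Without scaling between libraries it passed in WT CM and KEAP1 KO CM (log2 fold changes -0.29 and -0.37, adjusted p = 0.0052 and 0.00065). It passed in control media and KEAP1 KO CM when replicate 3 of both NRF2 KO CM groups was left out of the fit (log2 fold changes -0.19 and -0.17, adjusted p = 0.038 and 0.026).

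Of the interferon gamma receptor chains, the ligand-binding Ifngr1 (chromosome 10, 19467697 to 19485977) had the highest mean of the 10 genes in media/vehicle, 175 ± 7.497 TPM (SD, n = 3). It was at 211, 198 and 237 TPM in WT CM/vehicle and 154, 149 and 146 TPM in WT CM/CDDO-Me. Every treated library was lower there, with a log2 change of -0.41 (SE 0.17, adjusted p = 0.093) that did not pass. It passed at -0.36 (adjusted p = 0.040) when replicate 3 of both NRF2 KO CM groups was left out of the fit. In KEAP1 KO CM, 189, 162 and 264 TPM under vehicle overlapped 165, 146 and 146 TPM under CDDO-Me, with a wide spread under vehicle. The NRF2 KO CM groups had means of 216 ± 26.6 TPM under vehicle and 240.4 ± 14.9 TPM under CDDO-Me and overlapped each other and WT CM/vehicle. Ifngr2 (chromosome 16, 91343906 to 91362512), the signalling chain, had means between 84.4 ± 35.1 TPM in NRF2 KO CM/vehicle and 107 ± 2.91 TPM in media/vehicle. Its lowest value, 44.3 TPM, was in replicate 3 of NRF2 KO CM/vehicle, and the other 23 libraries lay between 78.6 and 119 TPM. Adjacent groups in the order of its means overlapped throughout.

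Under vehicle, Zbp1 and Sting1 were higher with WT CM and with KEAP1 KO CM than with control media. Of all genes, 7.34% differed between WT CM/vehicle and media/vehicle, and of the 10 genes these 2 did, with log2 fold changes of 1.62 (SE 0.27, adjusted p = 0.00054) and 0.73 (SE 0.13, adjusted p = 0.00082). Between KEAP1 KO CM/vehicle and media/vehicle, 7.96% of all genes and the same 2 of the 10 differed, Zbp1 by 1.39 (SE 0.27, adjusted p = 0.0021) and Sting1 by 0.77 (SE 0.13, adjusted p = 0.0004). The vehicle libraries of Zbp1 and Sting1 did not overlap between control media and either CM. For NRF2 KO CM/vehicle against media/vehicle, limma called 0.00732% of all genes, 1 gene, and 0 of the 10. At an unadjusted p under 0.05 were 2 of the 10 and 1659 of all 13661 genes. Of the 4 sensors that rose with CDDO-Me, Zbp1 and Sting1 were thus also higher in CM under vehicle, whereas Dhx58 and Ifih1 did not pass, with log2 differences of 0.12 and 0.04 in WT CM. With replicate 3 of both NRF2 KO CM groups left out of the fit, Ifnar2 also passed for WT CM/vehicle against media/vehicle (log2 fold change 0.37, adjusted p = 0.0054), where that fit called 19.1% of all genes.

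Under CDDO-Me, 6 of the 10 genes were higher with WT CM and with KEAP1 KO CM than with control media. Between WT CM/CDDO-Me and media/CDDO-Me, 26.8% of all genes differed, and of the 10 genes Zbp1 was higher by 5.88, Dhx58 by 2.78, Sting1 by 2.59, Ifih1 by 1.44, Ifnar2 by 1.06 and Cgas by 0.70 on the log2 scale. The fold for Zbp1 was 58.8. Between KEAP1 KO CM/CDDO-Me and media/CDDO-Me, 22.5% of all genes and the same 6 differed, with Zbp1 at 5.88, Ifnar2 at 0.91 (adjusted p = 0.00076) and Cgas at 0.75 (adjusted p = 0.018). Cgas lost its call in WT CM without any one of the 3 media/CDDO-Me libraries or replicate 3 of WT CM/CDDO-Me, with adjusted p over 0.05 and up to 0.078. It lost it in KEAP1 KO CM without replicate 1 or 2 of media/CDDO-Me (adjusted p = 0.053 for both) or replicate 1 of KEAP1 KO CM/CDDO-Me (adjusted p = 0.087). Between NRF2 KO CM/CDDO-Me and media/CDDO-Me, 0.154% of all genes and 0 of the 10 passed. At an unadjusted p under 0.05 were 4 of the 10 and 1006 of all 13661 genes. Sting1 was nearest to passing, at 0.62 (SE 0.13, adjusted p = 0.054). Replicates of the same number deviated together in these 2 groups, and with the replicate number as a block Sting1 passed (adjusted p = 0.015).

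The effect of CDDO-Me itself differed between media for the 4 sensors. The difference between the effect in WT CM and that in control media passed for 15% of all genes and for 4 of the 10, by 4.25 (SE 0.38, adjusted p = 9.4e-08) for Zbp1 on the log2 scale. The same test gave 2.66 (SE 0.42, adjusted p = 0.00013) for Dhx58, 1.87 (SE 0.18, adjusted p = 2.3e-07) for Sting1 and 1.41 (SE 0.27, adjusted p = 0.00096) for Ifih1. For KEAP1 KO CM against control media, 14.7% of all genes and the same 4 passed, with 4.49 for Zbp1, 3.04 for Dhx58, 1.78 for Sting1 and 1.52 for Ifih1. Ifnar2, whose changes had opposite signs in control media and in these CM, differed by 0.67 (SE 0.25, adjusted p = 0.087) and 0.68 (SE 0.25, adjusted p = 0.083), short of the threshold. These differences passed when replicate 3 of both NRF2 KO CM groups was left out of the fit, at 0.71 (adjusted p = 0.00028) and 0.69 (adjusted p = 0.00034), where that fit called 28.9% and 29.8% of all genes. For NRF2 KO CM against control media, 0% of all genes passed, 374 genes had an unadjusted p under 0.05, and 1 of the 10 genes did. The 95% interval of that difference was from 0.02 to 0.77 for Sting1 and from -0.20 to 1.41 for Zbp1.

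**Figure D3:**
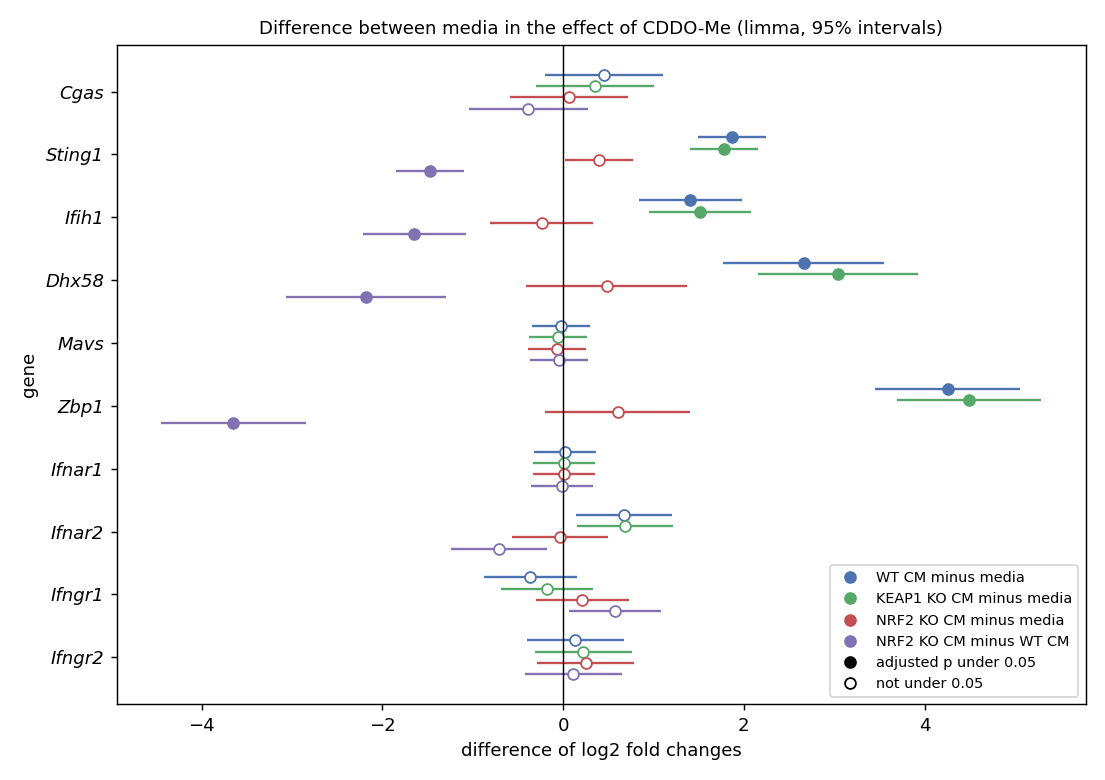
Difference between media in the log2 effect of CDDO-Me for each gene (vertical axis), with 95% intervals from limma and filled points past an adjusted p of 0.05. Zbp1, Dhx58, Sting1 and Ifih1 are filled for WT CM and KEAP1 KO CM against control media and, on the negative side, for NRF2 KO CM against WT CM, and no gene is filled for NRF2 KO CM against control media.

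The direct comparison of NRF2 KO CM with WT CM was added after the values were seen. The effect of CDDO-Me was smaller in NRF2 KO CM for 4 of the 10 genes, where 13.3% of all genes differed. The log2 difference in effect was -3.65 for Zbp1 (adjusted p = 8.1e-07), -2.18 for Dhx58 (adjusted p = 0.0011), -1.64 for Ifih1 (adjusted p = 0.0002) and -1.47 for Sting1 (adjusted p = 6.0e-06). Under CDDO-Me, 25.9% of all genes and 6 of the 10 differed between these CM, 5 lower with NRF2 KO CM and 1 higher. Zbp1 was lower by a fold of 35.5 and Dhx58 by a fold of 7.304. The log2 difference was -0.62 (SE 0.18, adjusted p = 0.014) for Ifnar2, which was lower, and 0.54 (SE 0.17, adjusted p = 0.027) for Ifngr1, which was higher. Ifnar2 did not pass without replicate 1 of WT CM/CDDO-Me or without replicate 1 or 2 of NRF2 KO CM/CDDO-Me (adjusted p from 0.051 to 0.079). Ifngr1 did not pass without any one of the WT CM/CDDO-Me libraries or without replicate 3 of NRF2 KO CM/CDDO-Me (adjusted p from 0.052 to 0.11). With replicate 3 of both NRF2 KO CM groups left out of the fit, 3 more values passed, all lower with NRF2 KO CM: Cgas (-0.66, adjusted p = 0.0047) and Ifngr2 (-0.31, adjusted p = 0.019) under CDDO-Me, and the difference in effect for Ifnar2 (-0.67, adjusted p = 0.0016). That fit called 40.5% of all genes under CDDO-Me and 21.7% for the difference in effect. Under vehicle, 10.7% of all genes and 2 of the 10 differed, with Zbp1 lower by 2.83-fold (adjusted p = 0.0011) and Sting1 by 1.42-fold (adjusted p = 0.015). Sting1 did not pass without replicate 1 or 3 of WT CM/vehicle (adjusted p = 0.078 and 0.069), and 4 of the 10 genes passed without replicate 1 of NRF2 KO CM/vehicle. The share of all genes in that last fit is not given here.

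Between BMDMs given KEAP1 KO CM and WT CM, none of the 10 genes passed. Under vehicle, limma called 0% of all genes and 0 of the 10, and 341 genes had an unadjusted p under 0.05, none of the 10 among them. Under CDDO-Me, 0.0512% of all genes, 7 genes, and 0 of the 10 passed, again with none of the 10 at an unadjusted p under 0.05. The 95% interval for KEAP1 KO CM/CDDO-Me against WT CM/CDDO-Me was from -0.56 to 0.57 for Zbp1, from -0.31 to 0.22 for Sting1, from -0.55 to 0.70 for Dhx58 and from -0.39 to 0.42 for Ifih1. The difference in the effect of CDDO-Me passed for 0% of all genes and 0 of the 10, with 225 genes at an unadjusted p under 0.05. Its interval for Dhx58, from -0.51 to 1.27, was the widest of the 10.

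Genes that act with the sensors were counted in lists of textbook roles. Of 16 partners and nucleases of the DNA branch, 5 rose and 2 fell with CDDO-Me in WT CM, and 5 rose and 3 fell in KEAP1 KO CM. Over all genes, 13.9% rose and 13.9% fell in WT CM, and 14.5% rose and 14.2% fell in KEAP1 KO CM. Samhd1, a dNTP hydrolase that limits reverse transcription, rose by 3.55 on the log2 scale in WT CM, to 2778 ± 318 TPM (SD, n = 3), and Trex1, the exonuclease that removes cytosolic DNA, rose by 2.18. Enpp1, which degrades cGAMP outside the cell, fell from 21.6 ± 0.462 to 1.999 ± 0.545 TPM, a log2 change of -2.86 (SE 0.13, adjusted p = 2.9e-12). In control media Samhd1 rose (0.90), and Enpp1 (-0.79) and Dnase2a (-0.55), a lysosomal DNase, fell. In NRF2 KO CM 1 rose and 1 fell. Same-numbered replicates deviated together in control media and NRF2 KO CM. With the replicate block the split was 1 higher and 3 lower in the first and 2 higher and 1 lower in the second. Of all genes, the block called 10.7% in control media and 14.6% in NRF2 KO CM. Without scaling the split was 3 higher and 3 lower in KEAP1 KO CM and 2 higher and 1 lower in NRF2 KO CM. The list's median was 0.08 in WT CM, beside -0.03 over all genes.

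Of 17 partners in RNA sensing, 8 rose and 3 fell in WT CM, and 9 rose and 2 fell in KEAP1 KO CM, beside 27.8% and 28.8% of all genes called in either direction. Without scaling the split was 7 higher and 5 lower, and 6 higher and 4 lower. Oas3, a double-stranded RNA sensor of the oligoadenylate synthetase family, rose by 2.96 (SE 0.33, adjusted p = 6.5e-07) in WT CM and also rose in control media, by 1.13. Tlr7, the endosomal single-stranded RNA receptor, fell, with a log2 change of -1.66 (SE 0.46, adjusted p = 0.0093). The counts were 1 higher and 1 lower in control media and 0 in NRF2 KO CM. There the same-numbered replicates were paired, and the replicate block gave 0 higher and 3 lower, beside 14.6% of all genes called. The median was 0.26 in WT CM.

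Of 5 partners of ZBP1, Mlkl and Ripk3 rose in WT CM and in KEAP1 KO CM, where 13.9% and 14.5% of all genes rose. Mlkl, the membrane-disrupting effector of necroptosis, went from 12.7 ± 1.35 to 64.98 ± 11.5 TPM (SD, n = 3), a log2 change of 2.37 (SE 0.20, adjusted p = 1.3e-08). Ripk3, the kinase that ZBP1 binds, rose by 0.99 (SE 0.15, adjusted p = 2.8e-05). Transcripts of the sensor, the kinase and the effector were thus all higher, and activity of that route was not tested. Ripk1, Casp8 and Fadd did not pass, and the list's median was 0.23 in WT CM. Mlkl also rose in control media (0.69) and Ripk3 in NRF2 KO CM (0.48). With the replicate block 2 of the 5 were higher in each of these media, where 10.7% and 14.6% of all genes were called. Without scaling the split in KEAP1 KO CM was 2 higher and 1 lower, and in NRF2 KO CM 0 of the 5 were called, so that the Ripk3 call there was lost.

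Of 10 kinases, adaptors and factors below the sensors, 1 rose and 1 fell in WT CM, where 27.8% of all genes were called. Irf7, an interferon regulatory factor that drives interferon alpha genes, rose by 2.13 (SE 0.19, adjusted p = 4.4e-08), from 13.4 ± 3.27 to 57.5 ± 12.1 TPM. Ikbke, a kinase of IRF3 and IRF7, fell, with -0.66 (SE 0.23, adjusted p = 0.043), a call lost with RLE scaling, and also fell in control media (-1.62) and NRF2 KO CM (-1.42). In KEAP1 KO CM 2 rose (1 without scaling), and in control media and NRF2 KO CM 1 rose and 1 fell. Tbk1 and Irf3, the central kinase and factor, did not pass in any of the 4 media, with log2 fold changes of 0.42 and 0.05 in WT CM. The list's median was 0.10 in WT CM.

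Of 11 genes that signal below the interferon receptors, 9 rose and 0 fell with CDDO-Me in both WT CM and KEAP1 KO CM, where 13.9% and 14.5% of all genes rose, and the list's median was 1.64 and 1.73. Usp18 and Socs1, feedback inhibitors of receptor signalling, rose by 2.49 (SE 0.21, adjusted p = 1.6e-08) and 2.35 (SE 0.21, adjusted p = 2.9e-08). In control media and in NRF2 KO CM limma called 0 of the 11. With the replicate block 1 was lower in each, where 10.7% and 14.6% of all genes were called. Of the kinases bound to the receptors, Jak2 rose by 0.36 and Tyk2 by 0.83, and Jak1 did not pass (-0.03).

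**Figure D4:**
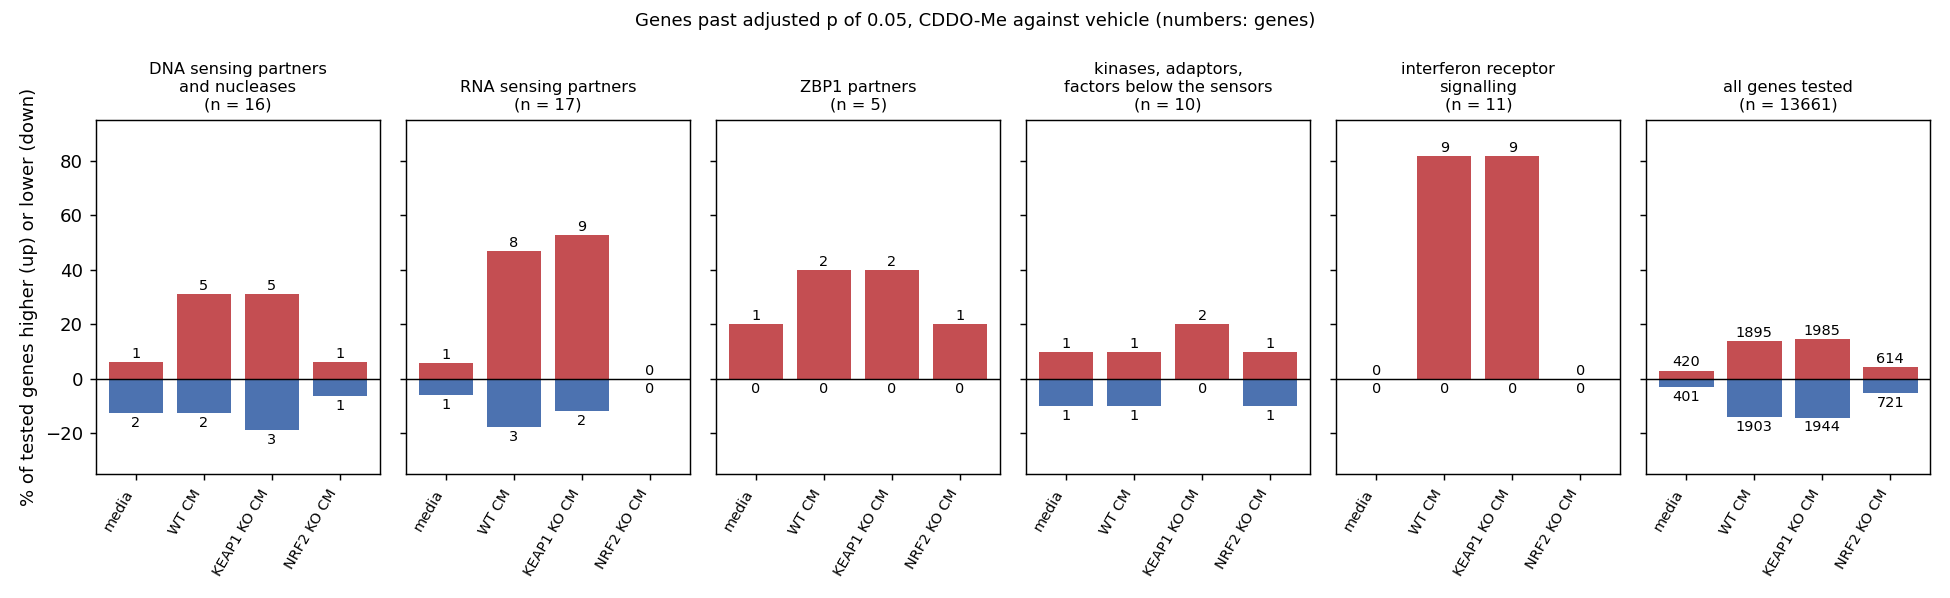
Share of tested genes higher (red, upward) or lower (blue, downward) with CDDO-Me at an adjusted p under 0.05 in each medium, for 5 lists of pathway genes and for all genes tested, with the number of genes at each bar. The 9 of 11 genes below the interferon receptors in WT CM and KEAP1 KO CM stand beside 0 in control media and NRF2 KO CM.

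Interferon transcripts were hardly listed in these libraries. None of 12 interferon genes reached the level for testing. Ifnb1 was listed at 0 in 23 of 24 libraries, with 0.131 TPM in NRF2 KO CM/vehicle replicate 2, and Ifng at 0 in 23 of 24, with 0.0637 TPM in WT CM/vehicle replicate 1. Ifnk was at 0 in 18 libraries and reached 0.184 TPM. The other 9 (Ifna1, Ifna2, Ifna4, Ifna5, Ifna6, Ifna12, Ifne, Ifnl2 and Ifnl3) were listed at 0 in all 24. A value of 0 in a TPM table can be a failed estimate, several of these genes are near copies of one another, and 24 h is a single time.

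Summed levels of markers of other cell types also differed between some groups. The neutrophil sum was higher under CDDO-Me in every medium, and the fibroblast sums of vehicle and CDDO-Me overlapped in every medium. The summed level of the 8 fibroblast markers was 552 to 1138 TPM in WT CM/vehicle and 209 to 591 TPM in WT CM/CDDO-Me, and 777 to 1479 and 166 to 788 TPM in the KEAP1 KO CM groups. In control media it was 767 to 1443 TPM under vehicle and 553 to 1680 TPM under CDDO-Me, and in NRF2 KO CM 595 to 2099 and 271 to 1338 TPM. The sum of 6 neutrophil markers was 10.3 to 31.8 TPM in WT CM/vehicle and 32.9 to 56.5 TPM in WT CM/CDDO-Me, 14.6 to 23.1 and 64.6 to 71.3 TPM in the KEAP1 KO CM groups, 13.2 to 25.1 and 29.98 to 45.8 TPM in control media, and 12.8 to 27.3 and 32.1 to 64.1 TPM in NRF2 KO CM, while the defining marker Ly6g was at 0 in 19 of 24 libraries. Most of the neutrophil sum came from S100a8, which reached 63.9 TPM, and S100a9, which reached 20.4 TPM. Mpo, Elane, Camp and Ly6g reached no more than 3.04 TPM. The sum of 4 epithelial or carcinoma markers (Epcam, Krt8, Krt18 and Cdh1) was 3.11 to 4.29 TPM in WT CM/vehicle and 4.69 to 7.23 TPM in KEAP1 KO CM/vehicle, above every other group. It was 0.0326 to 0.335 TPM in WT CM/CDDO-Me, 0.194 to 1.83 TPM in KEAP1 KO CM/CDDO-Me, 0.0213 to 0.0899 and 0.0218 to 0.258 TPM in the control media groups, and 0 to 0.421 and 0 to 0.389 TPM in the NRF2 KO CM groups. Of these markers, Epcam was at 0 in 16 libraries and reached 0.272 TPM, and Cdh1 reached 5.19 TPM. The sum of 3 plasmacytoid dendritic cell markers was 4.802 to 6.83 TPM in WT CM/vehicle and 1.07 to 3.79 TPM in WT CM/CDDO-Me, 2.13 to 4.303 and 0.565 to 1.09 TPM in the KEAP1 KO CM groups, 1.3999 to 3.35 and 1.49 to 1.75 TPM in control media, and 1.43 to 2.24 and 0.264 to 1.64 TPM in NRF2 KO CM, with Siglech at no more than 0.513 TPM. The part of these shifts in the results was not tested.

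Over the 8 group means, the genes tested that followed each of the 10 most closely were ranked by the root mean square difference of their centred log2 levels, among genes with a mean of at least 5 TPM. Zbp1 was nearest to Plbd1 (0.22), Ifi47 (0.31) and Fgl2 (0.34), where its own SD over the groups was 2.46. Sting1 was nearest to Arid5a (0.15), Socs3 (0.19) and Ggct (0.19), with an SD of 1.12. Dhx58 (SD 1.202) was nearest to H2-Q4 (0.21), Psme2 (0.22) and Themis2 (0.23), and Ifih1 (SD 0.65) to Zup1 (0.05), Bid (0.08) and Rnf31 (0.08). Ifnar2 (SD 0.34) was nearest to Pdk1 (0.05), Nudt19 (0.09) and Stambpl1 (0.09). For the flatter genes, the nearest were Zfand3 for Cgas (0.09), Vps25 for Mavs (0.03), Atg4c for Ifngr1 (0.06), Ehmt2 for Ifngr2 (0.03) and Trub1 for Ifnar1 (0.02), with SDs from 0.13 to 0.26.

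**Figure D5:**
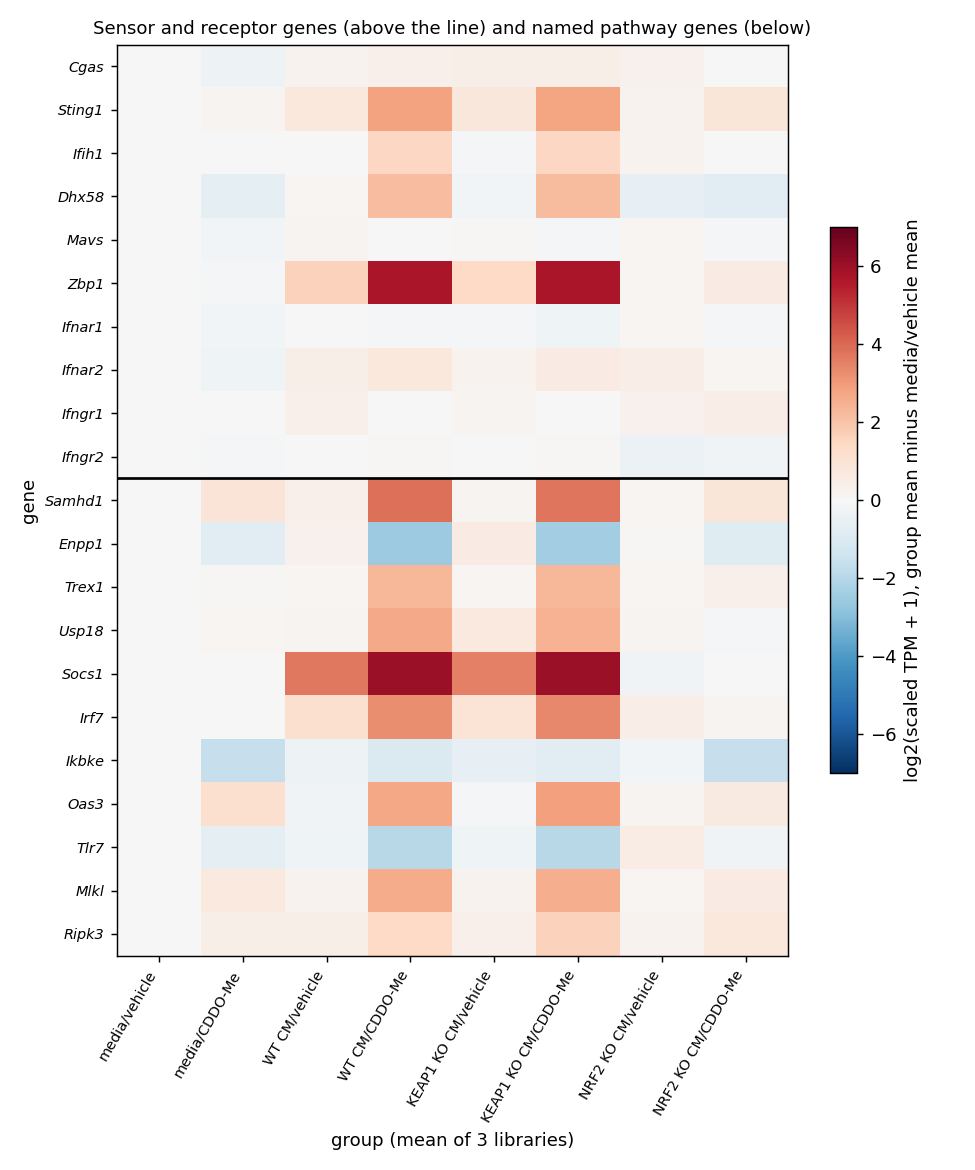
Group means of log2(scaled TPM + 1) minus the media/vehicle mean, in colour from blue (lower) to red (higher), for the 10 genes (above the line) and 11 pathway genes named by rule (below), over 8 groups of 3 libraries. Under CDDO-Me, the WT CM and KEAP1 KO CM columns are red for Zbp1, Sting1, Dhx58, Ifih1, Samhd1, Mlkl and Irf7, and blue for Enpp1 and Tlr7. Zbp1 and Socs1 are red in these media under vehicle too.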

How the data were processed

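Poly-A RNA of 24 BMDM libraries, 3 in each of 8 groups, was measured. Per the labels, the authors quantified reads with kallisto on GRCm39 transcripts, and the deposited values are TPM, which carry no read number, although the file is named as counts. Samples were grouped by their labels, and every column of the table was assigned to a sample (0 unassigned). A line without a gene name, 0.0199% to 0.0635% of the TPM, was left out.

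TPM were divided by factors from unweighted trimmed means of M values (trims of 30% on M and 5% on A; factors 0.91 to 1.11), and a pseudocount of 1 was added before taking log2, a scale that understates changes of low genes. Genes above 1 TPM in at least 3 libraries, 13661 in all, were fitted with limma over the 8 groups (eBayes with a trend, 16 residual degrees of freedom). Tests were two-sided, with Benjamini-Hochberg adjustment across every gene tested in a comparison and a threshold of 0.05. SE, 95% intervals and folds come from that fit, and TPM values are as deposited. Overlap between groups was judged on these TPM unless scaled values are named. The scripts were tested on simulated data. Replicate numbers were taken as pairing samples where all 3 same-numbered pairs of a comparison correlated above 0.1 in their deviations from the group means. This held in 8 of 14 comparisons of 2 groups (mean r over genes 0.26 for equal numbers and -0.12 for others). As deviations cancel out within a group, the second value follows largely from the first. The alternatives were RLE or no scaling, no filter, a filter at 5 TPM, pseudocounts of 0.1 and 0.5, no trend, array weights, a replicate block, the compared groups alone, each library left out, and both libraries with the fewest genes left out.

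The 10 genes and the pathway lists were chosen with earlier results of these data known. Named pathway genes are up to 3 per list with the largest change among those called with CDDO-Me in WT CM. Of these, 2 are not reported here. Others named beside them to complete a count were chosen after their values were seen, as were the 3 comparisons of NRF2 KO CM with WT CM. Gene positions are those of GENCODE vM39 on GRCm39, and promoter windows those of RefSeq on GRCm38.p6. The software was R 4.3.3, limma 3.58.1, Python 3.11.15 and matplotlib 3.10.9.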

Additional observations from a re-analysis of the deposited data

Results flagged for a closer look

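The effect of CDDO-Me differed between media for 4 sensor genes by limma's test of that difference. Between WT CM and control media the effect differed on the log2 scale by 4.25 for Zbp1, 2.66 for Dhx58, 1.87 for Sting1 and 1.41 for Ifih1. Between KEAP1 KO CM and control media it differed by 4.49 for Zbp1, 3.04 for Dhx58, 1.78 for Sting1 and 1.52 for Ifih1. All 8 differences passed in each of 23 alternatives. Both sets share the control media libraries. No rule for samples far from their group was applied, as the groups hold 3 libraries each. Both libraries with the fewest genes, and each library in turn, were left out in alternative fits.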

How the results depend on the processing

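Zbp1, Sting1, Dhx58 and Ifih1 passed with CDDO-Me in WT CM and in KEAP1 KO CM in each of 17 alternatives. Over the 80 differences of the 10 genes given above, 1363 of 1468 alternative values kept their direction and their side of the threshold, 60 newly passed, 20 no longer passed and 25 changed sign. The 25 belong to 7 differences, none of which passed. For Zbp1 between KEAP1 KO CM and WT CM under CDDO-Me the log2 difference was -0.00514 with RLE scaling, -0.0127 with no filter, -0.012 with array weights and -0.00256 with both libraries of fewest genes left out, and ran from -0.0903 to 0.094 with single libraries left out. In that comparison Ifih1 was at -0.00194 with no filter and from -0.11 to 0.14, and Dhx58 from -0.0428 to 0.15, with single libraries left out. Cgas with CDDO-Me was at -0.00421 with array weights and from -0.0183 to 0.16 with single libraries left out in WT CM. In KEAP1 KO CM it was at -0.14 without scaling, -0.00351 with a filter at 5 TPM, -0.11 with array weights and from -0.18 to 0.12 with single libraries left out. Ifih1 in WT CM against media under vehicle was at -0.0239 without scaling and from -0.0687 to 0.12 with single libraries left out, and Dhx58 with CDDO-Me in NRF2 KO CM ran from -0.67 to 0.20, with 0.20 without replicate 1 and 0.01 without replicate 2 of the vehicle group. The number of the 10 genes called moved most with array weights: with CDDO-Me to 6 in control media, 8 in WT CM, 8 in KEAP1 KO CM and 5 in NRF2 KO CM, where 26.3%, 52.3%, 51.4% and 22.2% of all genes were called. With these weights it was 6 for WT CM against media and 4 for KEAP1 KO CM against media under vehicle, 3 for NRF2 KO CM against media under CDDO-Me, 1 for KEAP1 KO CM against WT CM under vehicle, 4 for NRF2 KO CM against WT CM under vehicle and 7 for the difference in effect between those 2, beside 30.2%, 36.8%, 6.92%, 7.91%, 24.9% and 33.5% of all genes. Without scaling it was 7 in WT CM and 7 in KEAP1 KO CM with CDDO-Me, beside 29.6% and 33% of all genes. For NRF2 KO CM against media under CDDO-Me it was 1 without scaling or with the replicate block, beside 0.212% and 1.08% of all genes. It was also 1 there with RLE scaling or with a filter at 5 TPM. In fits of the compared groups alone it was 1 in control media and 0 in NRF2 KO CM with CDDO-Me, 4 for WT CM against media under vehicle and 0 for NRF2 KO CM against WT CM under vehicle. With both libraries of fewest genes left out it was 3 in control media and 7 in KEAP1 KO CM with CDDO-Me, beside 15.6% and 45.3% of all genes. With single libraries left out it ranged from 1 to 2 with CDDO-Me in NRF2 KO CM, from 0 to 1 for NRF2 KO CM against media under CDDO-Me and from 1 to 4 for NRF2 KO CM against WT CM under vehicle. Shares of all genes are not given here for RLE scaling, the filter at 5 TPM, the compared groups alone or single libraries left out. The cause of these moves was not tested. Without scaling, the share of higher genes among all calls fell from 49.9% to 39.1% with CDDO-Me in WT CM and from 50.5% to 34.6% in KEAP1 KO CM. With the replicate block, the interferon receptor signalling list had 1 gene lower in control media and 1 in NRF2 KO CM, where 0 were called without it. The block called 10.7% and 14.6% of all genes there.

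Among the 10 genes the replicate block changed 2 calls, Sting1 for NRF2 KO CM against media under CDDO-Me, given above, and Ifngr1 with CDDO-Me in WT CM (adjusted p = 0.043). That WT CM comparison missed the pairing rule, with 2 same-numbered pairs above 0.1. Its mean r was still 0.26 for equal numbers and -0.13 for others. Deviations cancel out within each group, so the value for others follows largely from that for equal numbers. The KEAP1 KO CM comparison missed the rule likewise, with mean r of 0.29 and -0.14. In the pathway lists the block moved no count by more than 1 gene in WT CM or KEAP1 KO CM. With both libraries of fewest genes left out, the 10 kinases, adaptors and factors had 4 higher and 1 lower in WT CM and 5 higher in KEAP1 KO CM, the 5 partners of ZBP1 had 3 higher and 1 lower in KEAP1 KO CM, and 5 of the 16 DNA partners and 2 of the 11 interferon receptor signalling genes were called in control media. That fit called 43.7% of all genes in WT CM, 45.3% in KEAP1 KO CM and 15.6% in control media. With array weights 5 of the 10 kinases, adaptors and factors were called in both WT CM and KEAP1 KO CM, and 4 of the 5 partners of ZBP1 in WT CM, control media and NRF2 KO CM. In control media and NRF2 KO CM these weights called 5 and 6 DNA partners, 6 and 7 of 17 RNA partners, and 4 and 2 interferon receptor signalling genes. Of all genes, array weights called 52.3% in WT CM, 51.4% in KEAP1 KO CM, 26.3% in control media and 22.2% in NRF2 KO CM. The depth of each library is unknown, so low values such as those of Cgas carry no counting interval, and 3 libraries per group limit every interval given.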

Other observations

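Il10rb, which encodes a chain of the interleukin 10 and interferon lambda receptors and lies between Ifnar2 and Ifnar1 on chromosome 16, was named after its values were seen. It fell with CDDO-Me in all 4 media, from 323 ± 21.5 to 189 ± 8.25 TPM in control media (SD, n = 3), from 338 ± 8.52 to 133 ± 5.79 TPM in WT CM, from 333 ± 12.4 to 116 ± 1.48 TPM in KEAP1 KO CM and from 286 ± 66.8 to 172 ± 24.4 TPM in NRF2 KO CM. The log2 fold changes were -0.76, -1.23, -1.34 and -0.70, with adjusted p from 1.8e-09 to 6.2e-05. The effect differed from that in control media by -0.47 in WT CM (adjusted p = 0.026) and by -0.58 in KEAP1 KO CM (adjusted p = 0.0061). Its neighbours Ifnar1 and Ifnar2 did not pass with CDDO-Me in any medium in the main fit. With replicate 3 of both NRF2 KO CM groups left out, Ifnar2 passed in control media, WT CM and KEAP1 KO CM. Ifnar1 then passed in control media and KEAP1 KO CM, lower in both. The difference between Il10rb and its neighbours was not tested.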
